A study of Homo sapiens with 16 samples.

Results

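The stretch from 17 to 19 Mb of chromosome 17 (hg19), which holds SREBF1 and RAI1, contained 56 of the 897 different AIB1 clusters listed over the whole series. Every row of the 4 deposited lists that overlapped this stretch was taken, which gave 83 of 1378 rows. The region was chosen because earlier results on these files had shown it to be dense in clusters, so its cluster number is a description. AIB1, the product of NCOA3, is a coactivator that nuclear receptors and other transcription factors recruit to DNA. The cells were MCF10A, a non-tumorigenic human mammary epithelial line, and MCFDCIS, a derivative that models ductal carcinoma in situ, each as the parental line and as a D4 counterpart. Each of these 4 groups had 3 ChIP samples with an AIB1 antibody and 1 input sample without antibody, all grown with EGF, insulin, hydrocortisone, cholera toxin and horse serum and fixed with 1.2% formaldehyde. The series title speaks of an AIB1D4 cistrome. How the D4 cells were made, whether a line is 1 clone, which AIB1 isoforms the antibody binds and whether the 3 samples came from separate cultures is not stated in the labels.

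Each group was represented by 1 list of clusters with no value per replicate and no sequencing depth, so no replicate error could be given and no test between groups was made. The file names and the sample descriptions assign the lists to opposite cell lines, so each list is called here by the line in its file name, as MCF10A-named or MCFDCIS-named. The domain held 32 clusters of the 490 in the parental MCF10A-named list, 12 of 138 in its D4 list, 31 of 651 in the parental MCFDCIS-named list and 8 of 99 in its D4 list. The values of column 5 in the files are the authors' scores, whose definition is not stated, and they were used only to rank clusters within a list, with rank 1 as the highest and tied values at the same rank.

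SREBF1 encodes SREBP-1, a membrane-bound transcription factor that is released by proteolysis when sterols are low and then turns on genes of fatty acid and cholesterol synthesis. Its isoforms SREBP-1a and SREBP-1c begin at different start sites of the same gene. RAI1, its neighbour, encodes a chromatin-associated regulator whose loss causes Smith-Magenis syndrome, and the other listed genes lie in the interval that is commonly deleted in that syndrome or beside it.

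Sequences under the clusters on which the results turn are shown here from the GRCh37 reference. In the 300 bp windows, matches to 8 consensus motifs are in capitals. Shorter windows, drawn around a single match, have only that match in capitals. The motifs, read on both strands, were AP-1 (TGANTCA), the glucocorticoid response element or GRE (GNACA and TGTNC with 3 bases between them), TEAD (GGAATG), the sterol regulatory element (TCACNCCAC), the E-box (CACGTG), the CCAAT box (CCAAT), SP1 (GGGCGG) and RUNX (TGTGGTT). The first pair of windows runs from 250 bases before to 50 bases into 2 SREBF1 transcripts on the gene's strand, the internal start in SREBF1-206 and the outer start in SREBF1-201, because a cluster covered each start. These windows were chosen after the values were seen.

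SREBF1-206 start, chr17:17726883-17727182, minus strand: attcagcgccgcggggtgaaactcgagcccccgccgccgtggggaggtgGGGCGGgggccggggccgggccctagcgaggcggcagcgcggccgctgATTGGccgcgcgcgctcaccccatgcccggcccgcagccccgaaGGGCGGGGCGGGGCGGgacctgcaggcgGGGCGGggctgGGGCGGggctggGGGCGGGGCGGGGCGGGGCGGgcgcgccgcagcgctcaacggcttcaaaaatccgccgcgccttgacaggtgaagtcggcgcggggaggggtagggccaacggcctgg

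SREBF1-201 start, chr17:17740251-17740550, minus strand: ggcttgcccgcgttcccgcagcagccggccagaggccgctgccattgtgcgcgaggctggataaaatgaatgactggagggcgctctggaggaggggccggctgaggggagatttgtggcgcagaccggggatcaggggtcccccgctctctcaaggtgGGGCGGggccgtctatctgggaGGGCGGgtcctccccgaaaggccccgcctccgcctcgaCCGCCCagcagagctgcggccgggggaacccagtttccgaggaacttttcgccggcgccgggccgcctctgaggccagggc

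The internal start window held 10 SP1 matches, some of them overlapping, and 1 CCAAT box. The outer start window held 3 SP1 matches. Among 35116 RefSeq promoter windows of the same length (GRCh38.p14), 45.0% held an SP1 match and 34.6% a CCAAT box, so either match is common in promoters.

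The next window is the centre of the cluster with the highest score in the domain in both parental lists, in intron 2 of RAI1. The shorter one is the GRE match of that cluster. An SP1 match that overlaps the end of the GRE match is in capitals in the longer window only.

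RAI1 intron 2 cluster, chr17:17677880-17678179, plus strand: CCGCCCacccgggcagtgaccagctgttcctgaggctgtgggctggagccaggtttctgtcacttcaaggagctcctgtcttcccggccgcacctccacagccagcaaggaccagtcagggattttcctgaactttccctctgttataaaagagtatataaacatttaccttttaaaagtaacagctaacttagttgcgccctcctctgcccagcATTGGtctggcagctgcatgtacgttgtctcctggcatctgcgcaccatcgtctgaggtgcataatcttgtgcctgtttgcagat

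GRE match in the RAI1 intron 2 cluster, chr17:17677845-17677905, plus strand: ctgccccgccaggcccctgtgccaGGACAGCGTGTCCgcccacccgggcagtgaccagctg

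The domain stood alone on this part of the chromosome. The nearest cluster below it, at chr17:8057651-8057860 by PER1, was 8942 kb from the 17 Mb border, and the nearest above it, at chr17:29399351-29399410 by NF1, was 10399 kb from the 19 Mb border. The outermost clusters inside were at chr17:17258101-17260060, 258.1 kb from the lower border, and at chr17:18908351-18908610, 91.4 kb from the upper one. Of 8 bins of 250 kb, the third and the fourth, where RAI1, SREBF1, TOM1L2 and DRC3 are, held 18 and 14 of the 56 clusters, and the first and the seventh held 0. The widest gaps, 280.0 and 214.1 kb, flanked a single 10 bp cluster at chr17:18473051-18473060, which was the only one of the 56 with another close match in the genome.

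**Figure D1:**
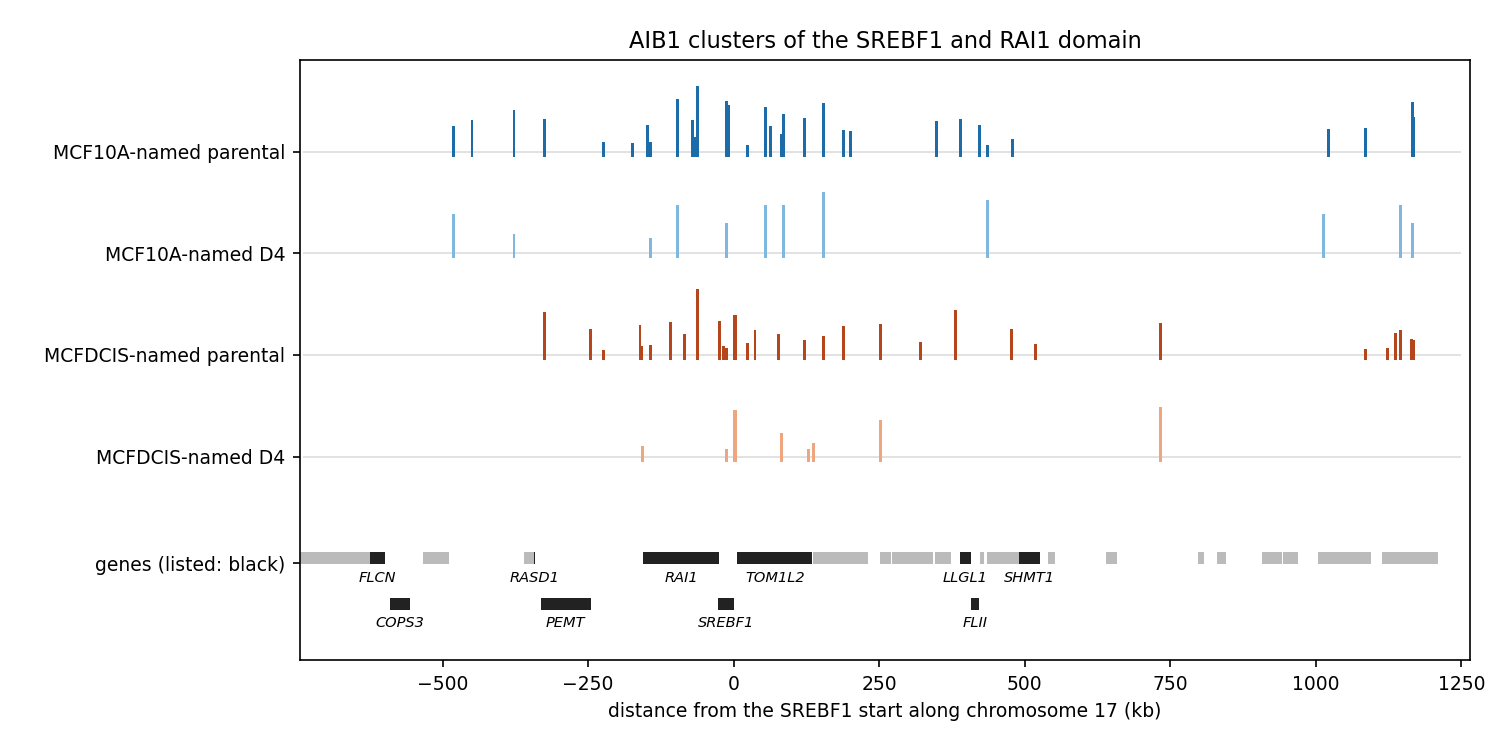
Clusters of the 4 lists along the domain, with distance from the SREBF1 start in kb on the horizontal axis and genes below (the 10 listed genes in black). Each bar is 1 cluster, drawn at least 5 kb wide, and its height above the line grows with the percentile of its score in its own list; bars crowd around RAI1, SREBF1 and TOM1L2 and are missing over FLCN and COPS3.

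Clusters were assigned to the protein-coding gene whose body they overlapped, or otherwise to the nearest transcription start site (TSS). By this rule 33 of the 56 went to 7 of the 10 listed genes, and 23 went to 13 other genes. RAI1 had 12, TOM1L2 9, SREBF1 5, PEMT 3, LLGL1 2, and FLII and SHMT1 1 each, while FLCN, COPS3 and RASD1 had 0. Per length, SREBF1 was the most densely marked of the listed genes, with 18.8 overlapping clusters per 100 kb of gene body. That value rests on 5 clusters in 26.6 kb. TOM1L2 had 6.98, RAI1 6.15 and PEMT 2.32. FLII had 7.18, LLGL1 5.20 and SHMT1 2.80, each from 1 overlapping cluster. With 2.8 different clusters per 100 kb over the whole domain, PEMT was below the domain's own level. When the nearest TSS alone decided, SREBF1 had 12, RAI1 9, TOM1L2 5 and RASD1 1, since the 3' ends of RAI1 and TOM1L2 lie near the SREBF1 start.

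The internal start of SREBF1 was the only place in the domain that all 4 lists had in common. The cluster at chr17:17726301-17729360, 3060 bp wide, lay in intron 1 of the main transcript and contained the start of SREBF1-206, 13.4 kb inside the gene. It was the only one of the 56 in all 4 lists. A cluster in all 4 must be in both D4 lists, which shared 6.52% and 9.09% of their clusters list-wide. With 12 and 8 D4 clusters in the domain, 1 shared cluster is near that share. By score it ranked 124 of 490 in the parental MCF10A-named list, 66 of 138 in its D4 list, 629 of 651 in the parental MCFDCIS-named list and 92 of 99 in its D4 list. The cluster was thus in the upper part of the parental MCF10A-named list and near the bottom of both MCFDCIS-named lists. Over its whole width it held 15 SP1 matches, 5 CCAAT boxes, 1 AP-1 match and 0 sterol regulatory elements. Of 300 bp stretches of the domain, 10.6% held an SP1 match, 28.2% a CCAAT box and 7.53% an AP-1 match. The cluster is several such stretches wide.

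The outer start of SREBF1 was listed under 1 line name only. The cluster at chr17:17738851-17745210, 6360 bp wide and the widest of the domain, contained the start of SREBF1-201 and reached 4.91 kb upstream of it. It was in the parental MCFDCIS-named list, at rank 280 of 651, and in its D4 list, at rank 29 of 99, and in neither MCF10A-named list. Its GC content was 58.8%, and it held 10 SP1 matches, 8 CCAAT boxes, 6 TEAD matches, 2 E-boxes and 1 sterol regulatory element. The last of these is shown in its window, with only that match in capitals on the plus strand. A CCAAT box in the same window is in lower case. A sterol regulatory element was in 3.03% of 300 bp stretches of the domain, so 1 match in a cluster of this width is near that background. CCAAT boxes, TEAD matches, SP1 matches and E-boxes were in 28.2%, 15.0%, 10.6% and 4.22% of these stretches, and the cluster is many stretches wide.

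Sterol regulatory element match upstream of SREBF1, chr17:17743519-17743575, plus strand: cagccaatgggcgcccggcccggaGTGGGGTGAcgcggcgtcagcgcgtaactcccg

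The other SREBF1 clusters were parental and in a single list each. Under the MCFDCIS name they were at chr17:17721951-17724310 over exons 2 to 5 (rank 615 of 651) and at chr17:17715551-17715860 in exon 19 (rank 344). Under the MCF10A name a 10 bp cluster lay at chr17:17730751-17730760 in intron 1, at rank 160 of 490. SREBF1 therefore had 2 parental and 1 D4 cluster in the MCF10A-named lists, and 4 parental and 2 D4 clusters in the MCFDCIS-named ones.

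RAI1 held the highest-scored domain cluster of both parental lists. The cluster at chr17:17677051-17679010, 1960 bp wide, lay in intron 2, 92.3 kb downstream of the RAI1 TSS and 6.44 kb from the start of the shorter transcript RAI1-202. It ranked 9 of 490 in the parental MCF10A-named list and 4 of 651 in the parental MCFDCIS-named one, and it was in neither D4 list. It held the single GRE match found over the whole width of the 56 clusters, at chr17:17677869-17677881, 0.155 kb from its centre and just outside the central 300 bp. In 6666 adjoining 300 bp stretches that cover the domain, 43 or 0.645% held a GRE match, and clusters several stretches long can hold one at that level.

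The other RAI1 clusters differed between the lists. An intron 1 cluster at chr17:17594051-17600360, 6310 bp wide, was in 3 lists, with ranks of 453 of 490, 114 of 138 and 601 of 651 in the parental MCF10A-named, D4 MCF10A-named and parental MCFDCIS-named lists. All of these ranks were low. An intron 2 cluster at chr17:17641351-17645710, 4360 bp wide, was in both MCF10A-named lists, at rank 110 of 490 and tied at rank 31 of 138. In intron 2 the parental MCFDCIS-named list alone had clusters at chr17:17631151-17632860 (rank 350 of 651) and chr17:17654851-17657110 (rank 479). The parental MCF10A-named list alone had narrow ones of 10 to 60 bp at chr17:17592551-17592560 in intron 1 (rank 315 of 490) and at chr17:17669001-17669060 (rank 275) and chr17:17674801-17674810 (rank 407) in intron 2. Of the 12 RAI1 clusters 9 were in a single list, and 3 were in a D4 list.

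The RAI1 promoter itself was marked in the D4 MCFDCIS-named list alone. The 110 bp cluster at chr17:17584151-17584260, 0.512 kb upstream of the TSS, ranked 90 of 99 there. The parental MCFDCIS-named list had clusters farther upstream instead, at 2.76 and 5.06 kb, and the parental MCF10A-named list had one at 17.7 kb.

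TOM1L2, which encodes an adaptor of endosomal protein sorting, had 9 clusters, all in introns. Of these, 6 were in the parental MCF10A-named list, 2 in its D4 list, 4 in the parental MCFDCIS-named list and 2 in its D4 list. The clusters at chr17:17794801-17794860 in intron 4 and chr17:17824251-17826410 in intron 1 were in both MCF10A-named lists. The cluster at chr17:17822001-17823010 crossed the names, since it was in the parental MCF10A-named and the D4 MCFDCIS-named list (rank 393 of 490 and 68 of 99). Both parental lists had chr17:17763151-17763910 in intron 12 (ranks 475 of 490 and 579 of 651) and chr17:17860251-17862560 in intron 1 (ranks 261 and 545). Listed once were chr17:17803101-17804910 in intron 2 under the parental MCF10A name (rank 329 of 490), and chr17:17777051-17777060 in intron 7 and chr17:17817051-17818660 in intron 1 under the parental MCFDCIS name (ranks 445 and 487 of 651). A 10 bp cluster 6.93 kb inside the gene, at chr17:17868801-17868810, was in the D4 MCFDCIS-named list alone. The start shared with DRC3, a gene of ciliary motility read in the opposite direction, had a cluster at chr17:17876601-17876860, again in the D4 MCFDCIS-named list alone (rank 85 of 99). This cluster was 0.865 kb from the TOM1L2 start and 0.474 kb from that of DRC3.

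The metabolic genes PEMT and SHMT1 had 4 clusters, all in parental lists and in no D4 list, as were 37 of the 56 domain clusters. List-wide, 13.7% of parental MCF10A-named and 9.98% of parental MCFDCIS-named clusters were also in the D4 list of their name. The absence of so few clusters from the D4 lists is near that background. PEMT encodes the enzyme that makes phosphatidylcholine by methylation. The cluster over its start, at chr17:17494401-17495760, was in the parental MCFDCIS-named list at rank 430 of 651. Both parental lists had the cluster at chr17:17517201-17517410, 22.2 kb upstream, and the one at chr17:17415401-17415760 in intron 4. The latter ranked 268 of 490 and 247 of 651, the third highest of the domain in the parental MCFDCIS-named list. It is also the cluster nearest to RASD1, 15.7 kb from its TSS, a gene for a small GTPase named for its induction by dexamethasone. SHMT1, which encodes cytosolic serine hydroxymethyltransferase, had a single 10 bp cluster at chr17:18258951-18258960 in intron 2, at rank 594 of 651 in the parental MCFDCIS-named list.

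The polarity and actin genes LLGL1 and FLII had parental clusters at or near their starts. LLGL1 helps to set up the basolateral side of epithelial cells. Its cluster at chr17:18129451-18129560, 0.502 kb inside the gene, was in the parental MCF10A-named list (rank 268 of 490), and one 7.74 kb upstream at chr17:18121001-18121210 was in the parental MCFDCIS-named list. The latter ranked 228 of 651, second only to the RAI1 intron 2 cluster among the 31 of the domain there. FLII encodes a gelsolin-family protein that also acts as a nuclear receptor coactivator. The cluster at chr17:18159451-18165260, 5810 bp wide, covered its start and exons 1 to 3, and was in the parental MCF10A-named list alone at rank 315 of 490. It also contained the start of MIEF2, a neighbouring gene read in the opposite direction.

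FLCN and COPS3 had no cluster in any list. FLCN encodes folliculin, a regulator of the Rag GTPases at lysosomes, and COPS3 a subunit of the COP9 signalosome. The cluster nearest to either was that at chr17:17258101-17260060, 117.6 kb from the FLCN TSS and 73.5 kb from the COPS3 TSS.

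Outside the listed genes, the 23 other clusters had a median width of 760 bp, and 10 of them were in a D4 list. The DRC3 intron 5 cluster at chr17:17893701-17894510 ranked 144 of 490, 11 of 138 and 505 of 651 in the parental MCF10A-named, D4 MCF10A-named and parental MCFDCIS-named lists. It was the highest-ranked of the domain in the D4 MCF10A-named list. The promoter of DRG2, a gene for a GTP-binding protein, had a 2210 bp cluster at chr17:17990951-17993160 in both MCFDCIS-named lists, at rank 373 of 651 and 48 of 99. The 10 bp cluster at chr17:18473051-18473060, 74.7 kb from TBC1D28, was also in both and ranked highest of the domain in the D4 MCFDCIS-named list, at 25 of 99. A 10 bp cluster in exon 19 of TOP3A, a topoisomerase gene, at chr17:18175901-18175910, was in both MCF10A-named lists, at rank 480 of 490 and 29 of 138. The remaining genes with clusters were NT5M, MED9, ATPAF2, MYO15A, ALKBH5, SMCR8, PRPSAP2, SLC5A10 and FAM83G. Of these, PRPSAP2 had a 610 bp cluster at chr17:18753101-18753710 in the D4 MCF10A-named list alone, tied at rank 60 of 138. The 1260 bp cluster at chr17:18885151-18886410 in intron 3 of FAM83G was in the D4 MCF10A-named list, tied at rank 31, and in the parental MCFDCIS-named list at rank 441 of 651.

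Of the 56 clusters, 52 were in a parental list and 19 in a D4 list, and the 4 in D4 lists only were those named above at RAI1, TOM1L2, DRC3 and PRPSAP2. Over the whole series the D4 lists were also the shorter ones, with 138 and 99 clusters against 490 and 651. In the MCF10A-named pair 10 of the 12 D4 clusters (83.3%, exact 95% interval 51.6 to 97.9) were also parental, where the list-wide share was 48.6%. Of the 32 parental clusters 10 were also in the D4 list (31.2%, 16.1 to 50), with 13.7% list-wide. In the MCFDCIS-named pair 4 of the 8 D4 clusters were also parental (50%, 15.7 to 84.3), with 65.7% list-wide, and 4 of the 31 parental clusters were in the D4 list (12.9%, 3.63 to 29.8), with 9.98% list-wide. The shares of the MCF10A-named pair were above those of their lists, and those of the MCFDCIS-named pair lay on either side. The intervals cover the number of clusters only, and clusters of a list share their libraries.

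Which parental clusters recurred in the D4 MCF10A-named list went with their score in this region, a split chosen after the values were seen. Of the 9 domain clusters above the median score of the parental list, 7 were also in the D4 list (77.8%, exact 95% interval 40.0 to 97.2), and of the 23 at or below it 3 were (13.0%, 2.78 to 33.6). Outside the domain, 18 of 232 above the median recurred (7.76%) and 39 of 226 at or below it (17.3%). The RAI1 intron 2 cluster was the highest-ranked domain cluster that did not recur. In the parental MCFDCIS-named list 1 of 4 domain clusters above the median recurred and 3 of 27 at or below it.

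The parental lists shared few of the domain's clusters with each other. Of these, 11 were common to both, 34.4% of the 32 MCF10A-named clusters (exact 95% interval 18.6 to 53.2) and 35.5% of the 31 MCFDCIS-named ones (19.2 to 54.6), while the list-wide shares were 62.7% and 47.2%. Among the clusters outside the domain, 296 were common, 64.6% of 458 and 47.7% of 620. Among the shared ones were those in RAI1 introns 1 and 2, PEMT intron 4, TOM1L2 introns 1 and 12, DRC3 intron 5 and the internal SREBF1 start. Of the 11, only the one upstream of PEMT lay outside a gene body. The median distance from an unshared cluster to the nearest of the other parental list was 11.3 kb for the 21 MCF10A-named and 11.2 kb for the 20 MCFDCIS-named clusters, and 10 and 8 of them were within 10 kb. Outside the domain 52 of 162 and 51 of 324 were. The region was chosen for its density, which brings clusters of any lists close together. The D4 lists shared 1 cluster of the domain, the internal SREBF1 start, or 8.33% of 12 and 12.5% of 8 (6.52% and 9.09% list-wide).

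**Figure D2:**
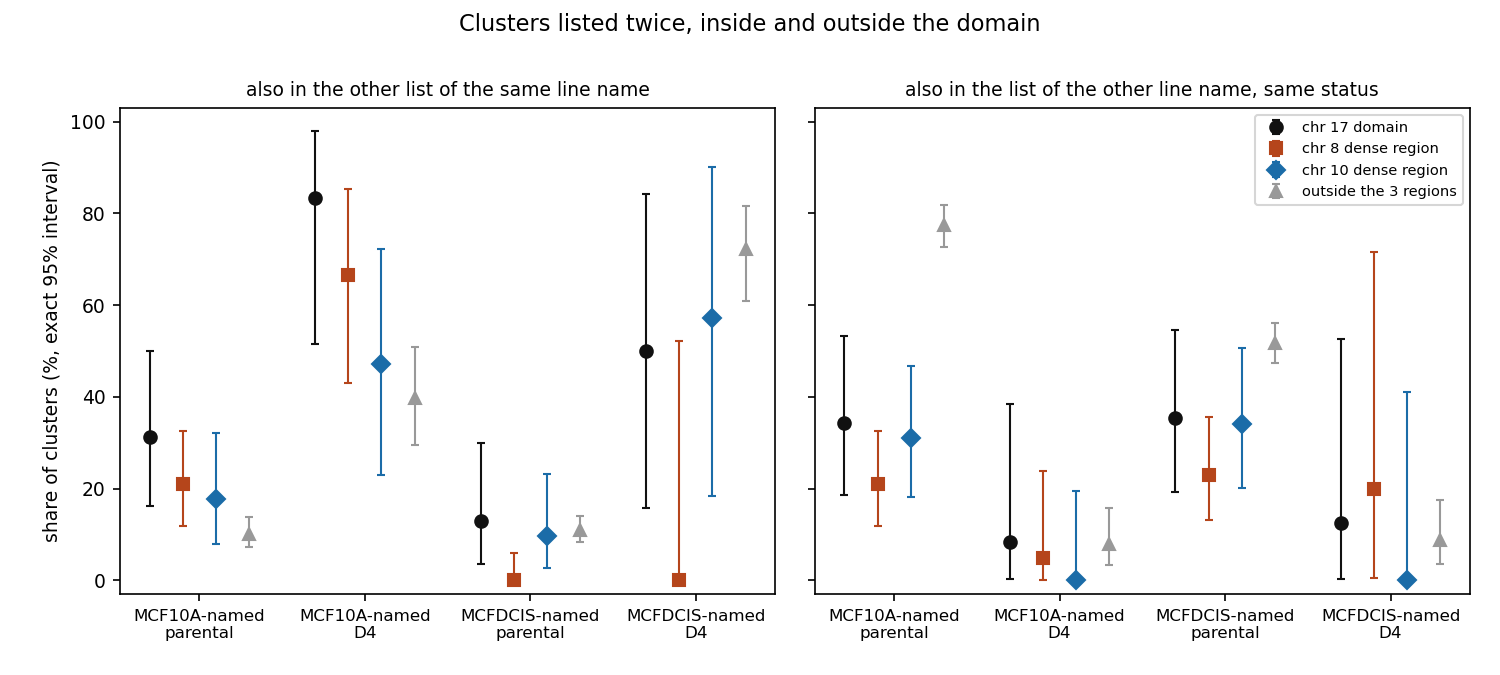
Share of clusters, in percent with exact 95% intervals, that were also in the other list of the same line name (left) or in the list of the other line name with the same status (right). Black circles are the domain, and the parental points at right, 34.4% and 35.5%, sit beside those of the dense regions on chromosomes 8 and 10 and below those outside all 3 regions.

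Low sharing between the parental lists was not particular to this domain. The other dense regions of these lists, the 3 Mb up to 130 Mb of chromosome 8 and the 2 Mb up to 75 Mb of chromosome 10, shared 14 clusters each. On chromosome 8 these were 20.9% of 67 MCF10A-named and 23.0% of 61 MCFDCIS-named clusters, and on chromosome 10 31.1% of 45 and 34.1% of 41. Outside all 3 regions 268 clusters were common, 77.5% of 346 and 51.7% of 518. In the D4 MCF10A-named list 14 of 67 and 8 of 45 parental clusters recurred there (20.9% and 17.8%), with 13.7% list-wide. Of the D4 MCF10A-named clusters there, 66.7% and 47.1% were also parental, with 48.6% list-wide. Under the MCFDCIS name 0 of 61 and 4 of 41 parental clusters recurred, with 9.98% list-wide.

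Clusters of the domain were wide. The median width was 910 bp in the parental MCF10A-named list, 1035 bp in its D4 list, 1060 bp in the parental MCFDCIS-named list and 635 bp in its D4 list, while the median outside the domain was 60 bp in each. Clusters over 500 bp numbered 19 of 32 (59.4%), 8 of 12 (66.7%), 20 of 31 (64.5%) and 4 of 8 (50%) in the same order, with 21.6%, 28.3%, 19.4% and 25.3% list-wide. The widths still overlapped, since 10 bp clusters occurred in the domain and clusters of up to 9510 bp elsewhere in the parental MCF10A-named list. The regions on chromosomes 8 and 10 were similar in the parental MCFDCIS-named list, with medians of 1410 and 1260 bp, and in the D4 MCFDCIS-named list, with 810 and 910 bp. In the parental MCF10A-named list they had 160 and 560 bp, and 43.3% and 51.1% of their clusters were over 500 bp. In the D4 MCF10A-named list the medians were 660 and 10 bp, with 52.4% and 35.3% of clusters over 500 bp. Clusters over 500 bp were thus more frequent in these regions than list-wide, but the chromosome 10 median in the D4 MCF10A-named list was below 60 bp. Width is set by the authors' caller, which is not named in the sources used here.

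**Figure D3:**
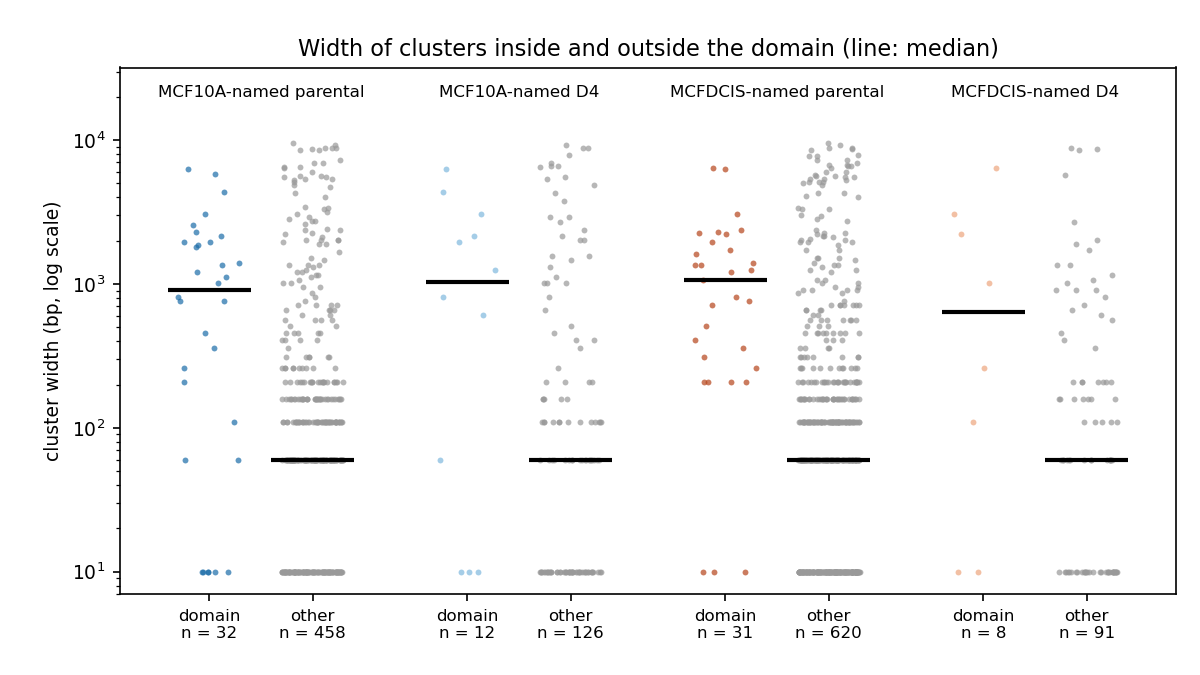
Width of each cluster in bp on a log scale, for the domain (coloured) and the rest of each list (grey), with the median as a line. The domain medians are between 635 and 1060 bp, the others are 60 bp.

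Most domain clusters of the parental lists had scores below the median of their list. The median percentile within the list, where 100 is the highest score, was 38.9 under the MCF10A name and 26.4 under the MCFDCIS name in the parental lists, and 9 of 32 and 4 of 31 were above the list's median (49.2% and 49.9% list-wide, below 50% where values tie). In the D4 lists the median percentile was 63.4 under the MCF10A name, with 8 of 12 above the list's median (47.1% list-wide), and 22.7 under the MCFDCIS name, with 3 of 8 (48.5%). The 19 wide clusters of the parental MCF10A-named list, over 500 bp, had a median percentile of 33.8 and the 13 narrower ones 45. Outside the domain the wide clusters of that list also had the lower median percentile, 41.7 against 55.4. Low scores were shared with the dense regions of chromosomes 8 and 10, where the median percentiles were 29.2 and 35.2 in the parental MCF10A-named list and 26.8 and 23.7 in the parental MCFDCIS-named list. Scores repeated exactly in the D4 lists. In the D4 MCF10A-named list 4 domain clusters, at RAI1 intron 2, TOM1L2 introns 1 and 4 and FAM83G, carried a value that 22 of its 138 clusters had. Another 2, at the internal SREBF1 start and FAM83G intron 2, carried a value that 31 clusters had. Ranks there are therefore coarse.

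**Figure D4:**
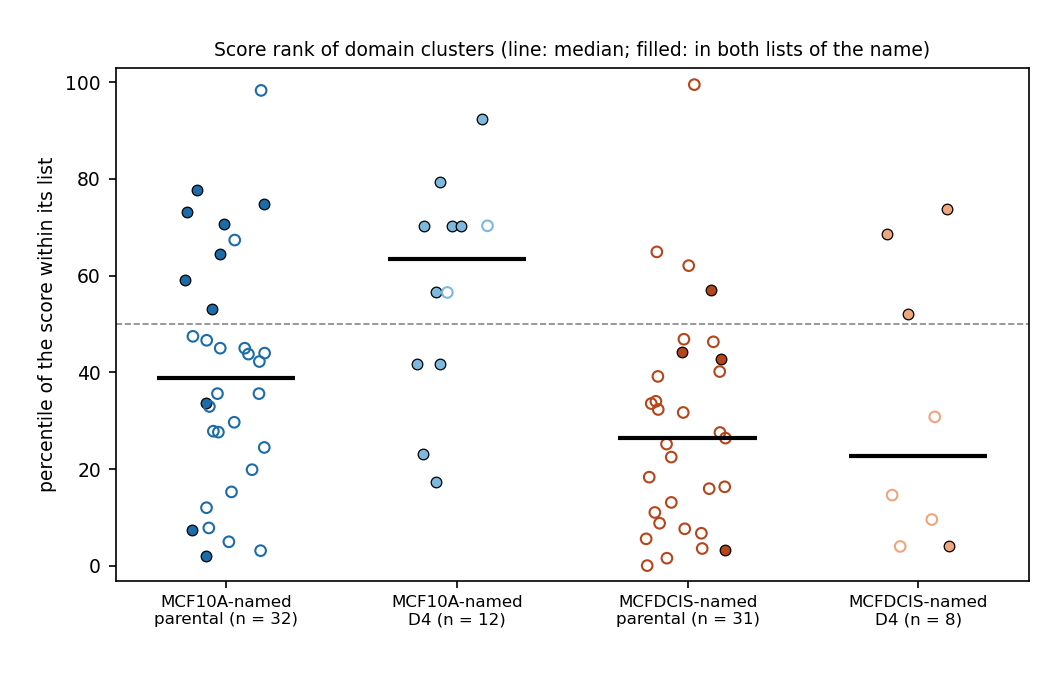
Percentile of each domain cluster's score within its own list, with 100 as the highest, the median as a solid line and the 50th percentile as a dashed line. Filled points are in both lists of the line name; in the parental MCF10A-named list 7 of the 9 points above the dashed line are filled.

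Of the 56 domain clusters, 46 overlapped a gene body, and gene bodies made up 62.8% of the length of the domain. By list the numbers were 27 of 32, 10 of 12, 26 of 31 and 6 of 8 in the MCF10A-named parental and D4 and the MCFDCIS-named parental and D4 lists, with 45.3%, 50.7%, 49.5% and 61.6% list-wide. The dense region of chromosome 10 had 66.7%, 64.7%, 70.7% and 85.7% of its clusters in gene bodies. Promoters, within 1 kb of the outermost TSS of a gene, held 5 of 32 (15.6%, exact 95% interval 5.28 to 32.8), 0 of 12 (up to 26.5%), 5 of 31 (16.1%, 5.45 to 33.7) and 4 of 8 (50%, 15.7 to 84.3) in the same order. The list-wide shares were 6.12%, 5.07%, 8.6% and 23.2%. The 4 D4 MCFDCIS-named promoter clusters were those of SREBF1, RAI1, DRC3 with TOM1L2, and DRG2. With any complete protein-coding transcript start, a definition added after the data were seen, the counts were 7, 1, 7 and 5, where 9.8%, 9.42%, 11.8% and 33.3% of the lists counted, and the added D4 cluster under both names was the internal SREBF1 start.

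Motif matches at the centres of domain clusters were compared with clusters elsewhere, with flanking windows and with the rest of the domain. In the central 300 bp an AP-1 match, a site for FOS and JUN proteins, was in 8 of 56 clusters (14.3%, exact 95% interval 6.38 to 26.2), against 27.7% of the 841 other clusters, 7.14% of 112 windows 5 kb outside the domain clusters and 7.53% of adjoining stretches of the domain. TEAD matches were in 5 (8.93%, 2.96 to 19.6), against 26.5% of other clusters, 13.4% of the flanking windows and 15.0% of the stretches. RUNX matches were in 2, or 3.57%, against 12.0% of other clusters, 3.57% of the flanking windows and 4.68% of the stretches. GRE and sterol regulatory element matches were in 0, which allows up to 6.38%, against 6.78% and 2.02% of other clusters, 0.893% of the flanking windows for either and 0.645% and 3.03% of the stretches. CCAAT boxes were in 15 (26.8%), against 33.2% of other clusters and 28.2% of the stretches, SP1 in 4 (7.14%), against 11.2% and 10.6%, and E-boxes in 2 (3.57%), against 4.04% and 4.22%. AP-1, TEAD and RUNX shares were thus below those of clusters elsewhere, although the RUNX interval (0.435 to 12.3%) contained the share elsewhere. Against the 2 local backgrounds, AP-1 was higher, TEAD lower and RUNX near them, and the interval of each contained both backgrounds. The 300 bp window covers only part of a wide cluster. Over the whole width AP-1 was in 42.9% of the 56, TEAD in 35.7% and SP1 in 35.7%, and sterol regulatory elements were in 3 clusters, at SREBF1, DRG2 and FLII. These whole-width shares have no counterpart for other clusters, and longer stretches hold more matches by construction. The median GC content at the centre was 53.2%, with 46.3% in other clusters and 53.0% in the flanking windows of the domain.

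Partners of the listed genes elsewhere in the genome had almost no clusters. Within 100 kb of the TSS, 0 of 5 genes of SREBP processing and sterol sensing (SCAP, INSIG1, INSIG2, MBTPS1 and MBTPS2), 0 of 16 genes of sterol and fatty acid synthesis and 0 of 11 genes of folliculin and nutrient sensing had a cluster in any list. FASN, the fatty acid synthase gene, was 199.2 kb from its nearest cluster, and RPTOR, a subunit gene of the mTORC1 kinase complex, 180.1 kb. Of 5 polarity partners of LLGL1, SCRIB had a cluster at 42.6 kb in both MCF10A-named lists. Over all 18300 protein-coding genes the share with a cluster within 100 kb was 4.04%, 1%, 6.19% and 1.5% in the MCF10A-named parental and D4 and the MCFDCIS-named parental and D4 lists, so a count of 0 among 5 to 16 genes is near the background. SREBF2, LSS, ACSS2 and PARD6B, on chromosomes 20 to 22, where the lists hold no cluster, were not analysed here.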

How the data were processed

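AIB1 ChIP-seq clusters of parental and D4 MCF10A and MCFDCIS cells were taken from 4 lists, 1 per group. The ChIP signal was normalized to lysate input, per the labels' design text, and the build was hg19 (GRCh37), as the submitters' processing notes name it. Column 5 holds a score deposited by the authors, with no stated definition. Aligner, peak caller, threshold and depth: not given in the sources used here. Columns of other samples numbered 0.

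Sequence came from GRCh37, and genes from GENCODE release 44 lifted to that build (protein-coding, with a symbol). Overlap meant at least 1 bp, and every shared domain cluster had the same borders in each list that held it. Exact 95% intervals follow Clopper and Pearson and cover the number of clusters only. A close match elsewhere meant 95% identity over 90 bp or more of the central 100 bp in minimap2 2.31. Scripts ran under Python 3.11.15 with pandas 2.3.3, numpy 2.4.6, matplotlib 3.10.9, pysam 0.24.0, SciPy 1.17.1 and samtools 1.23.1. Overlap, joining and motif search were tested on simulated data. Clusters named in full were those in 3 or 4 lists, the highest 3 of the domain per list, the widest per list, those in D4 lists only, those within 1 kb of a listed gene's TSS and those assigned to listed genes. The members, gene lists and motifs were chosen with earlier results of these data known. Alternatives covered domain borders, overlap, score, width, close matches, motif window, promoter and gene window.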

Additional observations from a re-analysis of the deposited data

How the results depend on the processing

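Of 104 recomputed values, 86 stayed within the interval of the value reported or, for counts, within 1.5 times of it, and 18 did not. None of those run with a domain longer by 500 kb on each side, joined clusters, removal of clusters with another close match, other overlap rules, or other promoter definitions was among the 18. The longer domain (12 values) and the joining (8 values), counted among the 86, could not change anything. The nearest outside clusters were 8942 and 10399 kb beyond the borders. Joining needed gaps under 1 kb, and the smallest gap within a list was 1.09 kb. Likewise, overlap within 1 kb could not alter sharing between the parental lists, whose unshared clusters were at least 1.14 kb from the other list. Reciprocal overlap of 50% (4 values) could not alter any share, as every shared domain cluster had identical borders in each list that held it. Removal of clusters with another close match could not alter counts or shares under the MCF10A name, where the domain held none. With clusters above the median score of their list, the domain held 9 in the parental MCF10A-named, 4 in the parental MCFDCIS-named and 3 in the D4 MCFDCIS-named list. For shares, the same filter was applied to both lists compared. It lowered the MCF10A-named share of D4 clusters that were also parental to 50%. The share of parental MCF10A-named clusters in the other parental list fell to 11.1%, and that of D4 clusters in the other D4 list to 0% under both names. The share of parental clusters also in the D4 list rose, within its interval, to 44.4% under the MCF10A and 25% under the MCFDCIS name. With the list searched for matches left unfiltered, the MCF10A-named shares were 75% of the D4 and 77.8% of the parental clusters. Without 10 bp clusters the D4 median widths rose to 1960 bp under the MCF10A and 1610 bp under the MCFDCIS name, still within intervals of 10 to 3060 and 10 to 6360 bp that are too wide to show a change. With a domain shorter by 500 kb on each side the D4 MCF10A-named list held 7 clusters. With a 25 kb window SCRIB was lost, which left 0 polarity partners in both MCF10A-named lists.

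Motif shares rose with the stretch searched, as longer stretches hold more matches by construction. With the central 500 bp TEAD was in 19.6%, the CCAAT box in 44.6% and SP1 in 25% of the 56 clusters. Over whole clusters AP-1 was in 42.9%, TEAD in 35.7%, the CCAAT box in 46.4%, SP1 in 35.7% and RUNX in 17.9%.

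No paired analysis was possible because the lists carry no replicate values. Leaving out replicates could not be run for the same reason, and sequencing depth is unknown.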
